A study of Mus musculus with 12 samples.

Results

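The clustered histone genes are the genes of the 4 replication-dependent histone clusters, which the Hist1 to Hist4 names mark. They were chosen by name: every gene of the table whose name opens with Hist1h, Hist2h, Hist3h or Hist4h, leaving out 1 gene named as a pseudogene. This gave 69 of 44205 genes, of which 6 are named for the linker histone H1, 20 for H2A, 18 for H2B, 12 for H3 and 13 for H4. The annotation holds 2 of the H2A members, Hist1h2aj and Hist1h2al, to be pseudogenes. In build GRCm38 the 56 genes of cluster 1 lie on chromosome 13, the 10 of cluster 2 on chromosome 3, the 2 of cluster 3 on chromosome 11 and the 1 of cluster 4 on chromosome 6. RNA sequencing had measured them in the ileum of 12 C57BL/6 mice aged 16 weeks, with RNA of each mouse isolated on its own and 3 mice in each of 4 groups. From 6 weeks of age and for 10 weeks, the NF mice had a normal-fat diet with plain water, the NF_Sugar mice the same diet with a sugar drink (23% weight by volume), the HF mice a high-fat diet (60% of calories from fat) with plain water, and the HF_Sugar mice the high-fat diet with the sugar drink. The tissue was whole ileum, so a level is a mix of epithelium, muscle, immune and other cells, and fewer cells of a type cannot be told apart from less RNA per cell.

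Most histone protein of a dividing cell is made from these genes during S phase, when new DNA is wrapped on nucleosomes of H2A, H2B, H3 and H4, with H1 bound outside the core. Their messenger RNAs are unusual. As a rule they have no introns and end in a short stem-loop that the protein SLBP binds, with no poly(A) tail. In the annotation used here, the models of 5 members (Hist1h2bc, Hist1h2be, Hist1h2bp, Hist1h2bq and Hist1h2br) do have introns. A few members are also made as polyadenylated RNA in cells that no longer divide, among them Hist1h1c and Hist1h2bc. In the ileum, dividing cells sit in the crypts. Because the libraries were made from poly(A)-selected RNA by the study's methods, tail-less histone RNA counts there only as far as it passed that selection.

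The 3' stem-loops are shown because they set this RNA family apart. A 16-base stem-loop, with 6 paired stem positions on each side of a 4-base loop, was found after the stop codon in the GENCODE M21 transcript models of 44 of 69 members, 21 to 58 bases behind the stop codon (median 31). It took 6 forms. The commonest was in 26 members and in all classes but H4, and 6 members of H1, H2B and H3 carried a form with another loop. The H4 genes had stems of their own: 1 form was in 7 H4 genes, and 2 further forms in 2 H4 genes each. One example of each of 4 forms is given 5' to 3', with the stem-loop in capitals and its neighbouring bases in lower case. Hist1h2ao (chr13:21810898-21810913, plus strand) has the common form, Hist1h3c (chr13:23745047-23745062, minus strand) the form with another loop, Hist1h4n (chr13:21831798-21831813, minus strand) the common H4 form and Hist1h4b (chr13:23757366-23757381, plus strand) a rarer H4 form.
Hist1h2ao: aaaaaGGCTCTTTTCAGAGCCatcca
Hist1h3c: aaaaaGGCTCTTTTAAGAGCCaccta
Hist1h4n: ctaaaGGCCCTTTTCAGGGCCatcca
Hist1h4b: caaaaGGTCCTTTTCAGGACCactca

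Of the 69 members, 31 had models with the stem-loop alone, 13 had models with both a stem-loop and a poly(A) signal (AATAAA or ATTAAA in the last 50 bases of a model), 4 had the signal alone and 21 had neither. Some of the last kind, such as that of Hist1h1b, are models that stop at the end of the coding region. Hist1h1c, which codes for the linker histone H1.2, had a model of the second kind, and its stem-loop lay at chr13:23739512-23739527 on the plus strand.
Hist1h1c: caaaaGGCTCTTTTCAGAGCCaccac

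The promoters are shown because H2A and H2B genes stand in pairs that start back to back. RefSeq promoters of GRCm38.p6 (250 bases before to 50 after the start) were matched for 62 of 69 members. A CCAAT box (CCAAT on either strand) was in 100% of the H1, H2A, H2B and H3 promoters, in 25% of the 12 H4 promoters and in 37.9% of all 27025 promoters. A TATA box (TATAAA on either strand) was in 56.5% of members and in 14.2% of all promoters. The octamer ATTTGCAT, on either strand, was in 7 of 18 H2A and 6 of 16 H2B promoters, in 0 of 6 H1, 0 of 10 H3 and 0 of 12 H4 promoters, and in 1.75% of all promoters. No motif holds the letters of another. There were 13 back-to-back H2A and H2B pairs, with 176 to 306 bases (median 251) between the 2 annotated starts. In 13 of 13 pairs, 2 or more CCAAT boxes lay between the starts. The 2 promoters of a pair overlap, so 1 motif can be counted for both genes. The H2A and H2B promoter counts are therefore not independent of each other. The bases between Hist1h2ae and Hist1h2bg (chr13:23571221-23571395, plus strand, reading towards Hist1h2bg) and between Hist2h2be and Hist2h2ac (chr3:96220881-96221118, minus strand, reading towards Hist2h2ac) are given with the octamer, CCAAT and TATA letters in capitals.
Hist1h2ae-Hist1h2bg: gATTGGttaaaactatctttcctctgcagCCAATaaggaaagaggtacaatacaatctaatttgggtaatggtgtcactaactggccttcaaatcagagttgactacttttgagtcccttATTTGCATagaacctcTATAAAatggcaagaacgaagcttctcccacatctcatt
Hist2h2be-Hist2h2ac: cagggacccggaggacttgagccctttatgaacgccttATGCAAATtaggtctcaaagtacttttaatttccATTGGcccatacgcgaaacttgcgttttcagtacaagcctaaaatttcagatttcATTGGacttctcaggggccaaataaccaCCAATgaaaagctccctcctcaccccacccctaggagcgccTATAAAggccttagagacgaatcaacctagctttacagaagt
Both stretches hold 1 octamer and 1 TATA box, and they hold 2 and 3 CCAAT boxes. Not all pairs have the 3 motifs: the octamer was found between the starts in 6 of 13 pairs and a TATA box in 7. The sequence searched covered the whole stretch in 8 pairs. In 7 of the 13 pairs the 2 genes had mean RPKM over the 12 libraries within 1.5 times of each other, such as 5.25 for Hist1h2aj and 5.26 for Hist1h2bm. Hist1h2aj is annotated as a pseudogene, and 91.7% of its 100-base windows occur in Hist1h2ai, so its own level is uncertain. The other 6 pairs differed by 2.94 times or more: the mean was 49.1 for Hist1h2bg and 5.01 for Hist1h2ae, and 103 for Hist1h2bc beside 5.53 for its partner Hist1h2ac. The H2A gene was the higher in Hist1h2ao with Hist1h2bq (34 and 1.58) and in Hist1h2ap with Hist1h2br (33.1 and 1.53).

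Levels are in RPKM, which scales reads by gene length and library size, and are comparable between genes as far as the gene lengths used are right. A few genes made up most of the signal. The 12 members with the highest mean held 65.1% to 82.3% of the summed member level of a library. Hist1h2bc, an H2B gene, was highest at 78.7 to 159 RPKM (median 98.9), and Hist1h1c followed at 48.3 to 179 RPKM (median 65.6). Hist1h2bg was at 29.3 to 91.4 RPKM, Hist1h2ao at 17.3 to 98.2, Hist1h2ap at 17.5 to 97.1, Hist2h2aa2 at 7.7 to 51.2 and Hist2h2aa1 at 7.56 to 49.7. The remaining 5 of the 12 were Hist1h2bh, Hist3h2a, Hist1h2bl, Hist1h2ag and Hist1h2ah, with means of 5.87 to 10.9 RPKM. The H3 and H4 genes were low, with means of 0.00743 to 1.48 RPKM over the H3 genes and 0.154 to 5.54 RPKM over the H4 genes. By class, H2B held 32.3% to 50.7% of the summed level, H2A 26% to 41%, H1 13.3% to 23.6%, H4 3.32% to 5.87% and H3 1.08% to 2.09%, although nucleosomes use the 4 core histones in equal number. All members together were 0.0631% to 0.23% of a library's RPKM total.

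Near-identical copies limit what single members show. Windows of 100 bases were compared between the members' transcript models. The median share of a gene's windows that also occur in another member was 64.5% for H2A, 40% for H3, 31.9% for H2B, 19% for H4 and 0.396% for H1. All windows of Hist2h2aa2 occur in Hist2h2aa1, and 92.7% of those of Hist1h2ao occur in Hist1h2ap. Many deposited values were not whole reads. Library depth was taken from the steps between low values, and for each member a gene length was searched that made its reads whole. At such a length, 18 members gave whole reads (within 0.06 of a read, plus 0.0001 of the number) in every library with under 400 reads. They were 9 of 12 H3, 7 of 13 H4 and 2 of 6 H1 genes, and 0 of 20 H2A and 0 of 18 H2B genes. Their read numbers rest on that length, which for some was below the annotated one (427 against 530 bases for Hist1h3g). Another 47 members did not pass. Most gave fractions, among them Hist2h2ab and Hist2h3c1, but Hist1h1t had too few libraries above 0 to pass. A further 4 could not be judged at their high read numbers. The median share of windows found in another member was 38.5% in the 47 that did not pass, 7 of which shared no window. It was 32% in those with whole reads, where it reached 92%. Levels of Hist1h2ao and Hist1h2ap and of Hist2h2aa1 and Hist2h2aa2 are uncertain one by one, since the counting could split reads between the copies.

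Some facts of the series as a whole bear on these values. The libraries held 15190000 to 38970000 reads, worked out from the steps between low values. On the first principal component of all tested genes, which held 39.7% of the variance, 1 library of each group stood apart from the other 8. These 4 were replicate 2 of NF, of HF and of HF_Sugar, together with replicate 1 of NF_Sugar. Summed over the fixed marker lists, the 10 ileal epithelium genes were at 6797 to 15400 RPKM, the 8 crypt genes at 1160 to 5085, the 8 smooth muscle genes at 420 to 1155, the 11 B cell genes at 96.1 to 260, the 10 T cell genes at 12.3 to 44.8 and the 7 testis genes at 0.0879 to 1.13, with the highest testis value in NF replicate 3.

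The summed level of all 69 members differed more between mice of 1 group than between groups. It was 439, 293 and 528 RPKM in the 3 NF mice, 371, 779 and 433 in NF_Sugar, 670, 419 and 496 in HF, and 1057, 291 and 465 in HF_Sugar. HF_Sugar held both the highest and the lowest library of the series, and each group's range overlapped every other. Means were 420 ± 118 (SD, n = 3) in NF, 528 ± 220 in NF_Sugar, 528 ± 128 in HF and 604 ± 401 in HF_Sugar. No test is given for this sum, since the members were chosen with results of these data known. Without Hist1h2bc the sums ran from 212 to 898 RPKM, and without the 5 members known to be also polyadenylated they ran from 152.5 to 698 RPKM.

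**Figure D1:**
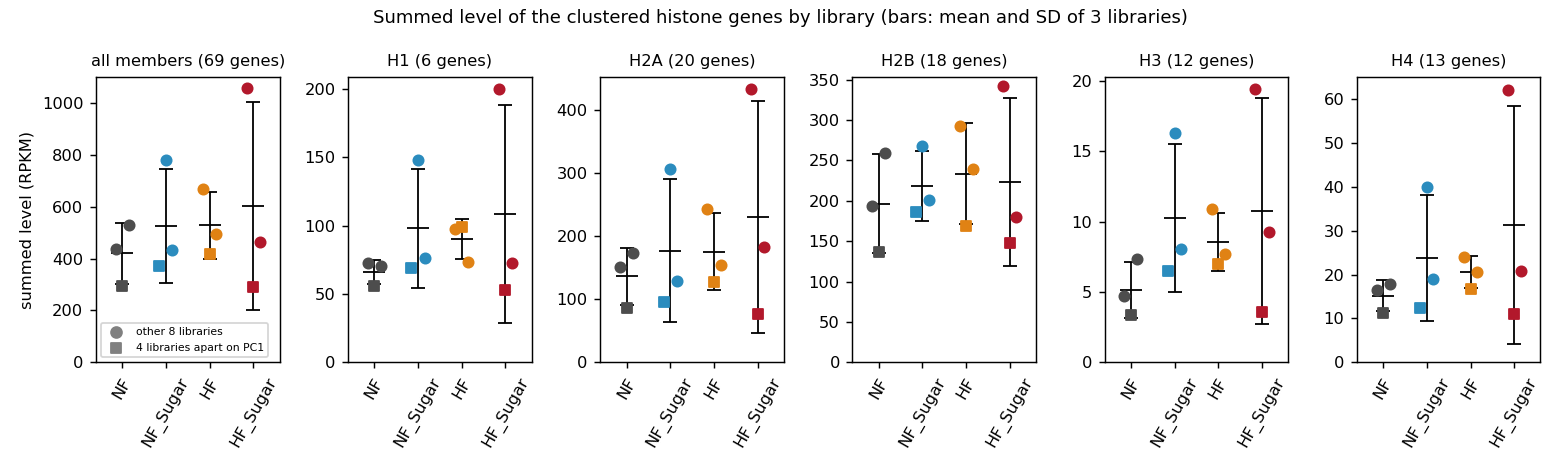
Summed level in RPKM of all members and of each histone class (y axes, from 0, scaled by panel) in the 4 diet groups (x axis). Points are libraries, squares mark the 4 libraries that stood apart on the first principal component, and bars give mean and SD of 3 libraries. HF_Sugar spans 291 to 1057 RPKM in the first panel. As deposited, the groups overlap in the panels except NF and HF in H1. There the highest NF library is at 72.4 RPKM and the lowest HF library at 73.5, and the 2 groups overlap after scaling.

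The 4 libraries that stood apart had the lowest sum of their groups, with values of 291 to 419 RPKM, against 433 to 1057 RPKM in the other 8. For single members, 31 of 69 had their lowest value in NF replicate 2 and 19 in HF_Sugar replicate 2. Highest values lay in HF_Sugar replicate 1 for 37 members, in NF_Sugar replicate 2 for 14 and in NF replicate 3 for 8. How often these libraries were lowest or highest over all genes was not worked out, so the counts do not set the members apart from other genes.

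The classes differed in how far single mice stood out. H4 sums were 62 RPKM in HF_Sugar replicate 1 and 39.9 in NF_Sugar replicate 2, against 10.9 to 24 in the other 10 libraries. H3 sums were 19.4 and 16.3 RPKM in the same libraries, against 3.39 to 10.9. H2A sums were 434 and 307 RPKM there, with HF replicate 1 next at 244. H2B sums were flatter, with 342 RPKM in HF_Sugar replicate 1, 293 in HF replicate 1, 267 in NF_Sugar replicate 2 and 260 in NF replicate 3. The highest library was 2.5 times the lowest for H2B, 3.79 times for H1 and 5.69 to 5.73 times for H2A, H3 and H4. H2B was 32.3% of the member total in HF_Sugar replicate 1 and 34.3% in NF_Sugar replicate 2, against 38.6% to 50.7% in the other 10 libraries. As deposited, H1 sums were 72.4, 56 and 70.2 RPKM in NF and 97.9, 99 and 73.5 in HF. It was the 1 class in which these groups did not overlap. After scaling the groups overlapped in H1 too, as values are divided by 0.917 in NF replicate 1 and by 1.03 in HF replicate 3. Hist1h1c, the highest H1 gene, overlapped as deposited (66.7 RPKM in NF replicate 1, 64.5 in HF replicate 3).

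**Figure D2:**
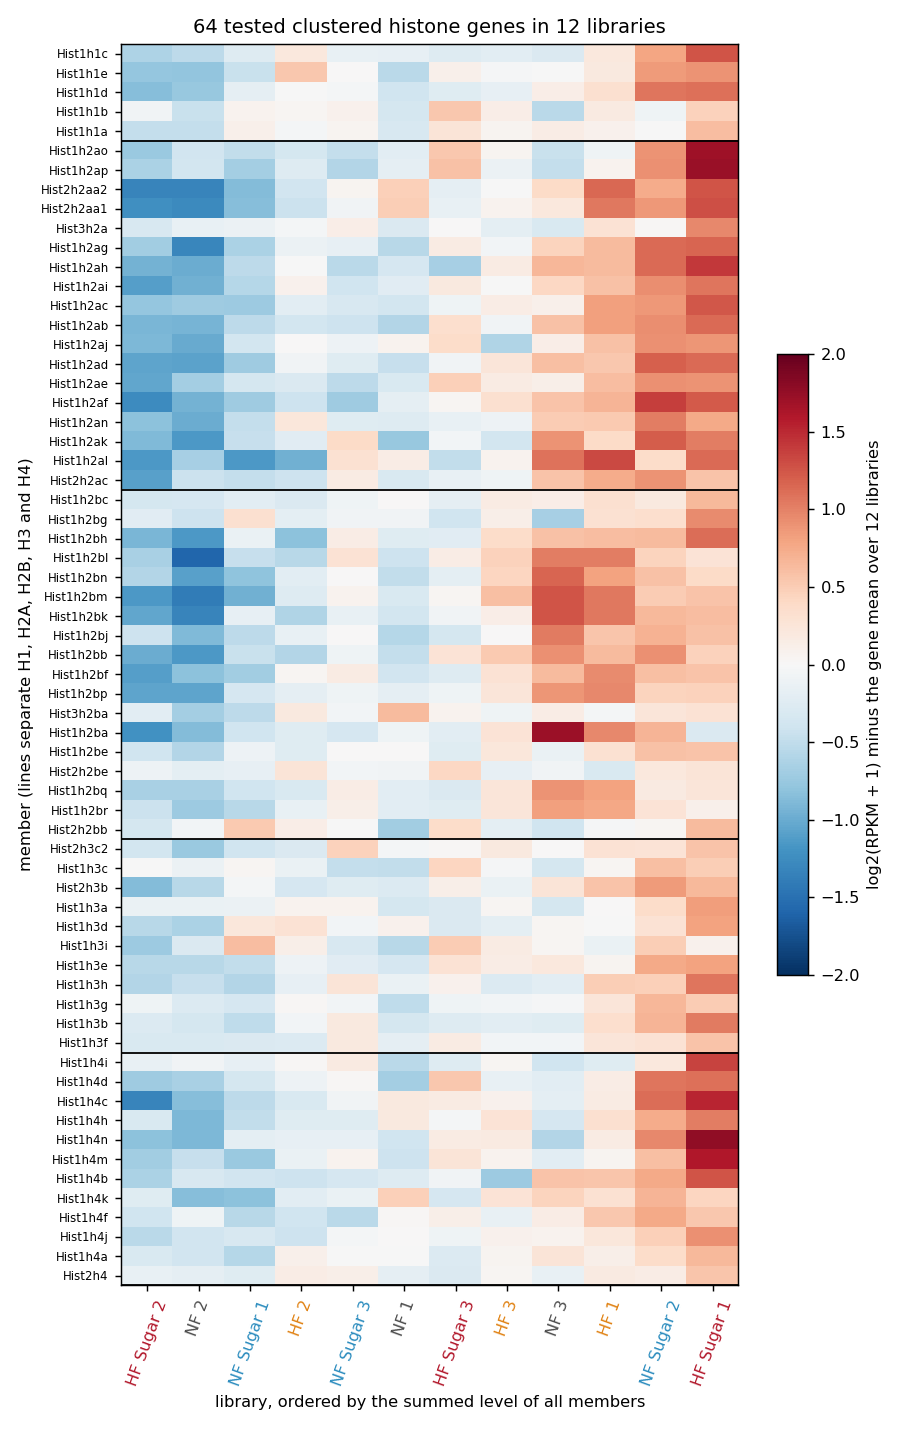
Level of the 64 tested members (rows, by class and mean level) in 12 libraries (columns, ordered by the summed level, names coloured by group), as log2(RPKM + 1) minus the gene's mean. The libraries at the left, among them HF_Sugar replicate 2 at 291 RPKM, are low for most members, while NF replicate 3 and HF replicate 1 are high for many H2A and H2B genes and less so for H4.

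Spread between mice of 1 group was wide for these genes against the rest of the transcriptome. For the 64 members tested (0.5 RPKM or more in at least 3 libraries), the median SD within groups was 0.61 on the log2(RPKM + 1) scale. It was 0.22 over all 17662 genes tested, and 0.21 when weighted to the members' levels. It was 0.76 for H2A, 0.63 for H2B, 0.58 for H4, 0.55 for H1 and 0.43 for H3, where the low levels pull values on this scale together. This spread limits which diet differences could be seen: the median 95% half-width of a difference between 2 groups was 1 log2 unit for a member. That width is for 1 comparison of 1 gene, and a call after adjustment over all tested genes is stricter.

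The 5 members listed as also made with a poly(A) tail had a narrow range over the libraries. Among the 36 members with at least 10 reads in every library, the ratio of the highest to the lowest library was 2.02 for Hist1h2bc, 2.12 for Hist2h2be, 2.7 for Hist3h2a, 3.36 for Hist3h2ba and 3.71 for Hist1h1c, all 5 among the 7 lowest ratios. The other 31 members had ratios of 3.12 to 11.3 (median 6.47). The other 2 among the lowest 7 were Hist1h2bg at 3.12 and Hist1h2be at 3.19, chosen for naming after their values were seen. Hist2h2be, an H2B gene, was at 1.75, 1.54 and 1.77 RPKM in NF, 1.59, 2.36 and 1.8 in NF_Sugar, 1.36, 2.47 and 1.59 in HF, and 2.46, 1.7 and 2.88 in HF_Sugar, and all groups overlapped. Within groups the listed members were less set apart: 4 of 5 had an SD above the median of all genes, and that of Hist1h1c, at 0.6, was at the 90.5th percentile of all genes and close to the members' median. The list was chosen from general knowledge with results of these data known, and no test was made of it. Grouped by transcript model instead, with no minimum of reads, the median ratio was 6.5 over 3 tested members with the poly(A) signal alone. It was 5.07 over 10 with signal and stem-loop, and 6.72 over 30 with the stem-loop alone. The 16 with neither, Hist1h2bc among them, had a median of 10.9. These medians include members with few reads, so they cannot be set against the ratios of the 36. Among the 7 lowest ratios, Hist2h2be, Hist3h2a, Hist1h2be, Hist3h2ba and Hist1h1c had a poly(A) signal in a model, and Hist1h2bc and Hist1h2bg had none. The other members of the 36 with a signal, Hist1h4i, Hist1h2ae, Hist1h2bq, Hist1h2bp and Hist1h2br, were at 4.51 to 7.34.

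**Figure D3:**
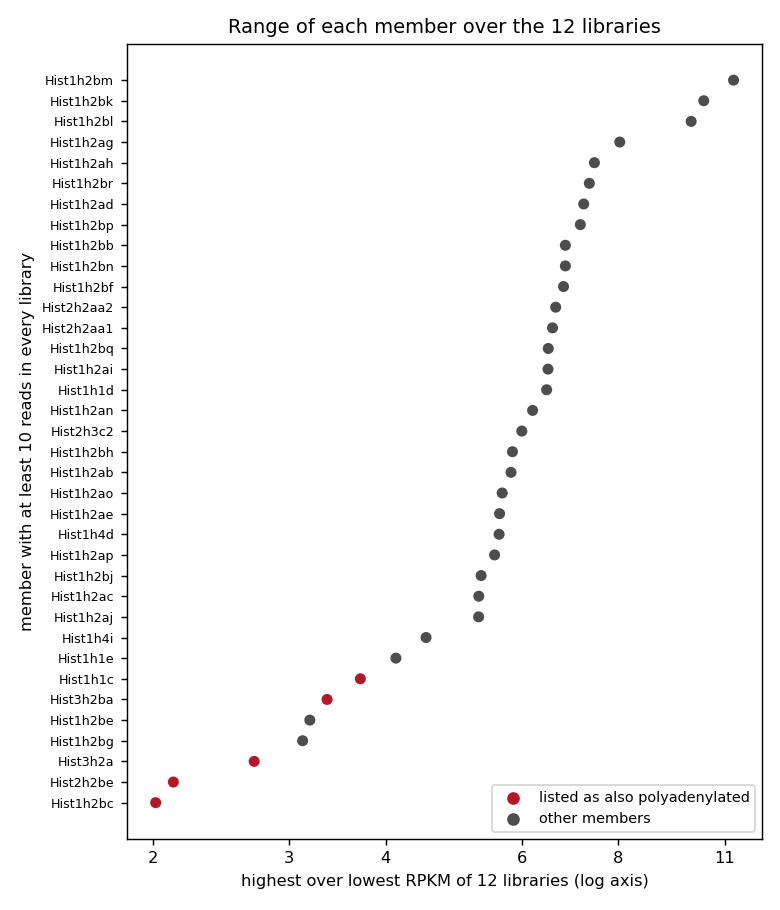
Highest over lowest RPKM of the 12 libraries (x axis, log scale) for the 36 members with at least 10 reads in every library (y axis, 1 point per gene, in order). Members listed as also polyadenylated (red) lie between 2.02 and 3.71, and the others between 3.12 and 11.3.

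The first question of the design was whether the combined diet changed expression. In HF_Sugar against NF, 0 of 64 members passed limma's test on log2(RPKM + 1) at an adjusted p under 0.05, as did 0% of all 17662 genes, and limma-voom on recovered reads also called 0 members. At an unadjusted p under 0.05 there were 2 members (Hist1h1b and Hist1h3c), or 3.12% of the 64, beside 4.16% of all genes. After scaling, the 2 groups did not overlap in 3 members, all higher in HF_Sugar (Hist1h1b, Hist1h3b and Hist1h3c), or 4.69% beside 6.08% of all genes. Hist1h3b overlapped as deposited (0.2 RPKM in NF replicate 3, 0.177 and 0.198 in HF_Sugar replicates 2 and 3). It had 3, 2 and 3 reads in NF and 27, 3 and 2 in HF_Sugar. The differences of the 64 members ran from -0.83 to 0.97 log2 units, with a median of 0.27 and 52 above 0. Over all genes the median was -0.01, and 48.1% were above 0. The median without HF_Sugar replicate 1 was -0.15, and without HF_Sugar replicate 2 it was 0.57. By class, medians were 0.39 for H1, 0.38 for H3, 0.31 for H2A, 0.29 for H4 and 0.02 for H2B.

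Hist1h1b, which codes for the linker histone H1.5 of dividing cells, was the member whose groups stood clearest apart. Its RPKM was 0.38, 0.293 and 0.223 in NF, 0.849, 0.667 and 0.882 in NF_Sugar, 1.01, 0.809 and 0.932 in HF, and 1.43, 0.688 and 1.57 in HF_Sugar. All 9 libraries of mice on the high-fat diet, the sugar drink or both were above all 3 NF libraries. The numbers behind it were small, at 11, 6 and 4 reads in NF and 10 to 24 reads in the other 9 libraries. The difference was 0.73 ± 0.14 (SE) in HF_Sugar against NF, with an adjusted p of 0.819 by limma (unadjusted 0.000417), 0.54 in HF against NF (adjusted p 1) and 0.46 in NF_Sugar against NF (adjusted p 1), and the 3 comparisons share the NF mice. No 100-base window of it occurs in another member, and its reads were whole in every library. It stayed between 0.64 and 0.9 in HF_Sugar against NF when 1 library was left out.

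Hist1h3c, an H3 gene, was at 0.525, 0.966 and 0.678 RPKM in NF, 1.2, 2.23 and 0.536 in NF_Sugar, 1.2, 0.946 and 1.11 in HF, and 2, 1.12 and 1.88 in HF_Sugar. The HF_Sugar libraries were above those of NF, and the other 2 groups overlapped both. The difference of 0.59 ± 0.24 (SE) had an adjusted p of 0.99 by limma.

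The largest differences of HF_Sugar against NF were those of 2 H4 genes and an H2A gene. Hist1h4n was at 1.13, 0.507 and 0.867 RPKM in NF, 1.47, 4.49 and 1.52 in NF_Sugar, 2.14, 1.51 and 2.19 in HF, and 8.67, 0.594 and 2.14 in HF_Sugar. Hist1h4d was at 1.24, 1.3 and 2.11 RPKM in NF, 1.82, 6.55 and 2.67 in NF_Sugar, 2.98, 2.35 and 2.27 in HF, and 6.78, 1.21 and 4.22 in HF_Sugar. Hist1h2ap was at 25.2, 21.9 and 20.4 RPKM in NF, 17.5, 54.6 and 18.8 in NF_Sugar, 30.2, 23.8 and 26.3 in HF, and 97.1, 18.1 and 43.3 in HF_Sugar. In each of the 3, HF_Sugar replicate 1 was highest and HF_Sugar replicate 2 lay within or below the NF values. The differences were 0.97 ± 0.54 (SE), 0.8 ± 0.43 and 0.84 ± 0.55, with an adjusted p of 0.99 each by limma, and without HF_Sugar replicate 1 they came to 0.25, 0.38 and 0.24.

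The lowest differences were those of Hist1h2ba, Hist1h2al and Hist1h2bq. Hist1h2ba, the H2B gene known from testis, was at 2, 0.757 and 9.38 RPKM in NF, 1.42, 4.13 and 1.53 in NF_Sugar, 5.23, 1.69 and 2.83 in HF, and 1.62, 0.38 and 1.76 in HF_Sugar. NF replicate 3 was far above the other 2 NF mice, and it also had the highest sum of the testis list and the most genes above 0 (37295, against 27913 to 32414 elsewhere), whose part in the result was not tested. The difference was -0.83 ± 0.55 (SE, adjusted p 0.99 by limma), and -0.2 without NF replicate 3. A share of 27.4% of the windows of Hist1h2ba also occurs in other members. Hist1h2al, annotated as a pseudogene, was -0.36 and Hist1h2bq -0.25 in HF_Sugar against NF, with adjusted p-values of 0.998 and 0.995 by limma, and both were at 0.12 when 1 library was left out (HF_Sugar replicate 2 for Hist1h2al, NF replicate 3 for Hist1h2bq). Of the other 2 genes known from testis, Hist1h1t was listed at 0 in 9 of 12 libraries and at up to 0.304 RPKM elsewhere, and Hist1h2aa was at or below 0.127 RPKM throughout.

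The groups overlapped for the most abundant member and for the next. Hist1h2bc was at 102, 79.7 and 111 RPKM in NF, 87.1, 116 and 95.8 in NF_Sugar, 127, 82.8 and 114 in HF, and 159, 78.7 and 89 in HF_Sugar. Hist1h1c was at 66.7, 51.8 and 61 RPKM in NF, 62, 130 and 67.2 in NF_Sugar, 86.4, 86.7 and 64.5 in HF, and 179, 48.3 and 62.4 in HF_Sugar. In both genes HF_Sugar replicates 2 and 3 lay within or near the NF range. The differences of HF_Sugar against NF were 0.05 ± 0.27 (SE) and 0.39 ± 0.45, with 95% intervals of ±0.6 and ±0.99 around them and adjusted p-values of 1 and 0.995 by limma.

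The single components of the diet were compared next. In HF against NF, 0 of 64 members passed limma's test (0% of all genes, and 0 members by limma-voom), and 1 member (Hist1h1b) had an unadjusted p under 0.05, or 1.56% beside 3.48% of all genes. After scaling, the groups did not overlap in 9 members, all higher in HF, or 14.1% beside 4.62% of all genes: Hist1h1b, Hist1h1e, Hist1h3a, Hist1h3b, Hist1h3g, Hist1h4d, Hist1h4m, Hist1h4n and Hist2h4. None of the 9 was an H2A or H2B gene. As deposited, Hist1h1e (5.15 RPKM in NF replicate 3, 5.09 in HF replicate 3) and Hist1h3g (0.485 and 0.463 in the same libraries) overlapped. Reads were few in some: Hist1h3b had 3, 2 and 3 in NF and 12, 5 and 3 in HF, and Hist1h3g had 1, 3 and 5 against 8, 5 and 4. Hist1h4m shares 88.1% of its windows with Hist1h4n, so the 9 are not independent of each other. The median difference was 0.31, with 60 of 64 above 0 beside 48.6% of all genes, and it lay between 0.12 and 0.42 when 1 library was left out. In NF_Sugar against NF, 0 of 64 members passed (0% of all genes, and 0 by limma-voom), 1 (Hist1h1b) had an unadjusted p under 0.05, beside 1.7% of all genes, and 3 did not overlap after scaling and were higher in NF_Sugar (Hist1h1b, Hist1h4d and Hist1h4n), or 4.69% beside 2.8% of all genes. As deposited, Hist1h4d overlapped (2.11 RPKM in NF replicate 3, 1.82 in NF_Sugar replicate 1). The median difference was 0.3, with 56 of 64 above 0 beside 46.9% of all genes, and it was -0.01 without NF_Sugar replicate 2. The 3 comparisons share the NF mice, so their medians are not independent of each other.

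Between the diets with fat or sugar, the members were centred near 0. In HF_Sugar against HF, 0 of 64 members passed limma's test (0.00566% of all genes) and 0 had an unadjusted p under 0.05, beside 4.29% of all genes. Their median was -0.04, with 31 above 0, and the H2B median was -0.32. In HF_Sugar against NF_Sugar, 0 of 64 passed (0.00566% of all genes) and 0 had an unadjusted p under 0.05, beside 1.64% of all genes, with a median of -0.0024 and 32 above 0. For the main effect of fat and that of sugar, 0 members passed (0% of all genes for both), and 1 member, Hist1h1b in both, had an unadjusted p under 0.05, beside 2.62% and 3.49% of all genes. For the interaction of fat and sugar, 0 members passed (0% of all genes) and 0 had an unadjusted p under 0.05, beside 2.47% of all genes, with a median of -0.37 and 8 of 64 above 0, against 51% of all genes. The interaction median was -0.75 without HF_Sugar replicate 1 and -0.04 without HF_Sugar replicate 2. Limma-voom called 0 members in each of these 5 comparisons.

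**Figure D4:**
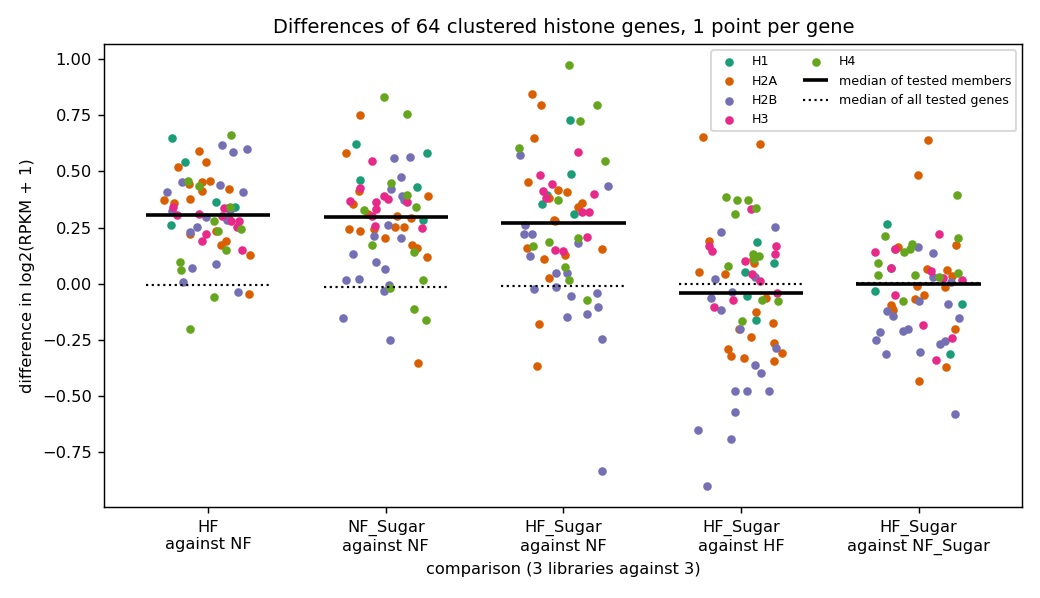
Difference in log2(RPKM + 1) (y axis) of the 64 tested members in 5 comparisons of 3 libraries against 3 (x axis), 1 point per gene and coloured by class. Solid lines are the medians of the members (0.31, 0.3, 0.27, -0.04 and -0.0024) and dotted lines the medians of all 17662 genes, which lie close to 0.

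How the summed level moved with other RNAs was described over libraries. The 17 measured RNAs of a list without poly(A) tails, such as 7SK, 7SL and the RNA of RNase MRP, summed to 474 to 522 RPKM in the 4 libraries that stood apart and to 581 to 1194 RPKM in the other 8, the same split as for the histone sum. Since the libraries fall into 2 sets, relations were computed within the 8. The histone sum had a Pearson r of 0.635 with this list (exact permutation p = 0.0855, adjusted over 3 relations 0.257) and a Spearman rho of 0.738 (exact permutation p = 0.0458, adjusted 0.138), and r was 0.7 without the 2 libraries farthest from the median of the list. With the mean log2(RPKM + 1) of 30 S-phase genes r was 0.0302 (exact permutation p = 0.943, adjusted 0.943) and rho 0.333 (exact permutation p = 0.428, adjusted 0.428), and r was 0.221 without the 2 farthest libraries. With that of 18 mitosis genes r was 0.408 (exact permutation p = 0.319, adjusted 0.478) and rho 0.476 (exact permutation p = 0.243, adjusted 0.365), and r was 0.115 without the 2 farthest. Within the 8 libraries, none of the 3 relations passed after adjustment.

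**Figure D5:**
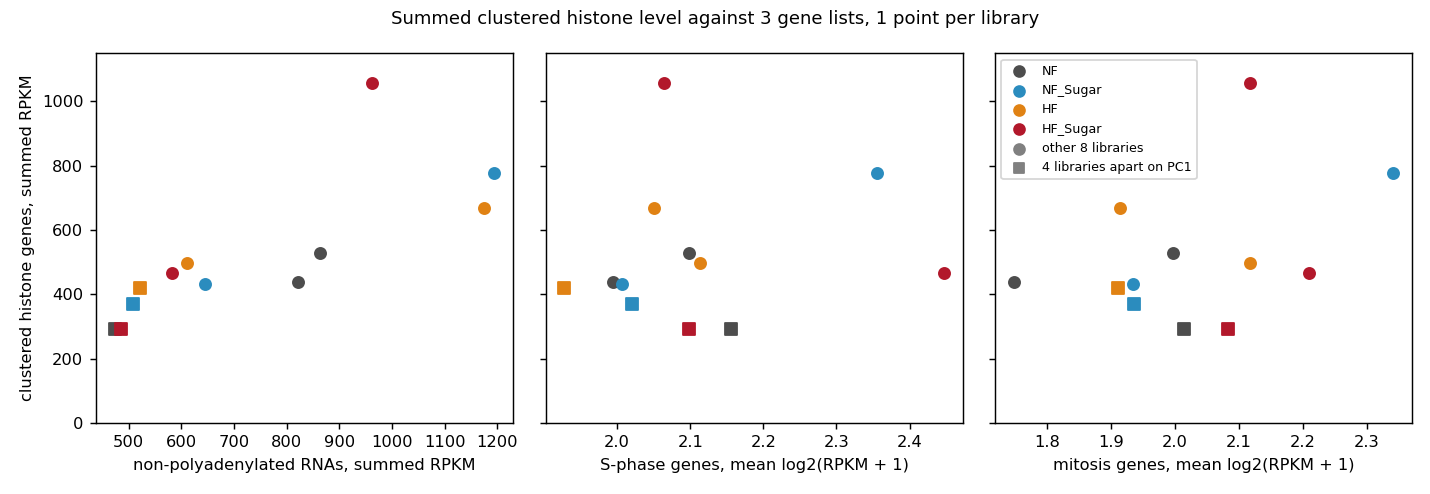
Summed RPKM of the 69 members (y axis) against the summed RPKM of the list without poly(A) tails and the mean log2(RPKM + 1) of the S-phase and mitosis lists (x axes), 1 point per library, coloured by group, squares for the 4 libraries that stood apart. HF_Sugar replicate 1 has the highest histone sum (1057 RPKM) at an S-phase value of 2.06, and HF_Sugar replicate 3 has the highest S-phase value at 465 RPKM.

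Genes that work with these histones varied less and were not called either. Of 13 tested genes for histone mRNA transcription and processing, 0 passed in HF_Sugar against NF by limma, 10 were above 0 and the median difference was 0.08. Slbp, whose protein binds the stem-loop, was at 2.25, 2.52 and 2.41 RPKM in NF and at 2.6, 2.13 and 2.8 in HF_Sugar. Npat, which codes for the activator of these promoters, was at 0.653, 0.779 and 0.65 RPKM in NF and at 0.59, 0.731 and 1.07 in HF_Sugar. The groups overlapped for both genes. The summed level of the list was 35.1 to 45.4 RPKM over the 12 libraries, a range of 1.29 times, against 3.63 times for the members.

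Of 17 tested histone chaperone genes, 0 passed, 10 were above 0 and the median was 0.01. Replacement histones are also made outside S phase, mostly from polyadenylated RNA. Of 11 tested genes for them, 0 passed, 5 were above 0 and the median was -0.13. H3f3b, which codes for the replacement histone H3.3, was at 94.4, 83.1 and 110 RPKM in NF and at 88.2, 78.5 and 86.7 in HF_Sugar, and the groups overlapped. Of 29 tested S-phase genes, 0 passed, 22 were above 0 and the median was 0.07, and Ccna2, which codes for cyclin A2, was at 5.58, 9.06 and 6.45 RPKM in NF and at 9.21, 9.27 and 10.5 in HF_Sugar, which did not overlap as deposited but did after scaling (difference 0.38 ± 0.2 SE, adjusted p 0.99 by limma). Of 18 tested mitosis genes, 0 passed, 18 were above 0 and the median was 0.16. Of 10 tested RNAs without poly(A) tails, 0 passed, 6 were above 0 and the median was 0.13. At an unadjusted p under 0.05 there was 1 gene in these 6 lists together, the vault RNA gene Vaultrc5, at 2.51, 1.78 and 2.32 RPKM in NF and 1.24, 0.255 and 0.429 in HF_Sugar. Of the cell type lists, in the same comparison, 10 of 10 tested B cell genes (median 0.34), 8 of 8 crypt genes (0.27), 5 of 10 T cell genes (-0.04), 1 of 8 smooth muscle genes (-0.29) and 0 of 10 epithelium genes (-0.14) were above 0. At an unadjusted p under 0.05 there were 3 B cell genes and 1 T cell gene, all higher, 0 genes of the 5 lists passed limma's test, and their part in the histone levels was not tested.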

How the data were processed

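RPKM values of 44231 names were deposited by the authors, in 1 table of the series and in 12 files of single libraries. By the authors' methods, poly(A)-selected RNA depleted of ribosomal RNA was sequenced on the Ion Proton and aligned to mm10 with STAR in Partek Flow, with Ensembl release 91. How reads that fit several genes were placed, and whether strand was used, is not given in the sources used here. All 12 files were identical to their column. Names made of digits alone (26, with 0.135% of the RPKM total at most) were dropped. The members and gene lists were chosen with earlier results of these data known.

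Libraries were scaled by the TMM method, trimming 30% of ratios and 5% of levels at each end. Genes that reached 0.5 RPKM in 3 or more libraries were fitted as log2(RPKM + 1) with limma 3.58.1 in R 4.3.3 (trend, 4 groups in 1 fit, 8 residual degrees of freedom). Calls needed a Benjamini-Hochberg adjusted p under 0.05. A fold change on this scale understates the change of low genes. In simulated data of HF_Sugar against NF over 17662 genes, the fit found 61.5% of 200 genes set to a log2 change of 1, and 90.5% where the change was 2. The 200 were drawn from all tested genes, each simulated with its own spread and independent noise. These shares do not hold for the members, whose median SD within groups was 0.61 beside 0.22 over all genes. Reads per library were worked out from the size of the smallest RPKM steps, giving 15190000 to 38970000 reads (75.5% to 91.2% of low values whole within 0.03), which in simulated data came within 0.2% in 3 of 3 libraries. The 95% intervals of differences come from the spread between mice in this fit.

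Named genes were the 12 members with the highest mean, the 3 highest and 3 lowest differences of HF_Sugar against NF, members with an unadjusted p under 0.05, the testis and polyadenylated lists, and up to 3 genes of each other list by p, with Slbp and Npat. Same-numbered libraries were compared by the correlation of their deviations from group means. Each of the 3 correlations was over 0.1 in 2 of 6 pairs of groups (HF_Sugar with NF and with HF), with no shared animal or batch in the labels, so the main fit has no replicate block. Alternatives were other pseudocounts, filters, scalings and fits, and leaving out libraries. Transcript models came from GENCODE M21 and promoters from RefSeq, both GRCm38.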

Additional observations from a re-analysis of the deposited data

How the results depend on the processing

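In each of the 8 comparisons 0 members were called under every alternative run, 165 values in all. With 1 library left out, the median difference of the members changed sign in 6 of the 8 comparisons: it ran from -0.15 to 0.57 in HF_Sugar against NF, -0.01 to 0.48 in NF_Sugar against NF, -0.42 to 0.31 in HF_Sugar against HF, -0.41 to 0.29 in HF_Sugar against NF_Sugar, -0.04 to 0.30 for fat and -0.07 to 0.31 for sugar. It kept its sign in HF against NF (0.12 to 0.42) and in the interaction (-0.75 to -0.04).

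Over all genes, calls at most reached 5. With no filter, 4 genes were called in HF against NF, 4 in NF_Sugar against NF, 5 in HF_Sugar against NF and 0 in HF_Sugar against HF and in HF_Sugar against NF_Sugar. The 1 gene called in each of the last 2 comparisons became 0 with a pseudocount of 0.1, a mean of at least 5 RPKM, quantile normalization, the replicate block, the 2 groups alone, limma-voom and without the 4 libraries that stood apart, and in HF_Sugar against NF_Sugar also with no scaling. Leaving out 1 library gave 0 to 2 genes in HF against NF and in HF_Sugar against HF, and 0 to 1 in NF_Sugar against NF, HF_Sugar against NF, HF_Sugar against NF_Sugar, the sugar main effect and the interaction. The causes were not tested. The replicate block, which pairs libraries by number, gave 0 called genes in all 8 comparisons and changed no call of a member.

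For 21 named members in HF_Sugar against NF, 23 of 432 values changed sign. Among them, Hist2h2aa2 was -0.052 with limma-voom, Hist1h2bl was -0.094 without the 4 libraries that stood apart, and Hist3h2ba was 0.00627 with a pseudocount of 0.1 and 0.022 with no scaling. With 1 library left out, differences ran from -0.28 to 0.21 for Hist1h2bc, -0.19 to 0.73 for Hist1h1c, -0.0014 to 0.74 for Hist1h2bg, -0.66 to 0.62 for Hist2h2aa2, -0.57 to 0.68 for Hist2h2aa1, -0.36 to 0.65 for Hist1h2bh, -0.36 to 0.80 for Hist1h2bl, -0.63 to 0.54 for Hist1h2ah, -1.03 to 0.12 for Hist1h2al, -0.54 to 0.12 for Hist1h2bq and -0.33 to 0.33 for Hist3h2ba. None of these values was past the threshold. The correlations with 3 lists kept their sign and stayed short of the threshold with the mean log2 level (0.145 to 0.719).

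With 3 mice per group, the 95% half-width of a difference between 2 groups had a median of 1 log2 unit over the members, and it was narrower for some (0.32 for Hist1h1b). Members with few reads, such as the H3 genes, are limited by counting as well.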

Other observations

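Values of several members fell below 1 read in some libraries. Hist2h2bb was listed at 7.68e-10 RPKM in NF replicate 1 and at up to 1.51 RPKM elsewhere, and Hist2h3c1 at up to 0.0279 RPKM, while Hist2h3c2, which shares 61.6% of its 100-base windows with Hist2h3c1, was at 0.428 to 2.57 RPKM. Hist2h2ab was above 0.5 RPKM in 2 libraries.

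Summed over all olfactory receptor genes, a family of sensory neurons, NF replicate 3 had 44.2 RPKM against 11.3 to 23.4 in the other 11 libraries. The highest values of 8 members, 1 of them Hist1h2ba, lay in the same library.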
